A study of Mus musculus with 8 samples.

Results

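The mitochondrial ribosome was followed here at the RNA level through its 2 rRNAs and its protein genes in hearts lacking mtSSB, the mitochondrial single-stranded DNA binding protein encoded by Ssbp1. The members were all protein-coding rows of the deposited table named Mrpl or Mrps followed by a digit, together with mt-Rnr1 and mt-Rnr2. This rule took 80 of 55383 rows, namely 49 Mrpl genes, 29 Mrps genes and the 2 rRNAs, and it used names only and no measured value.

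The mitochondrial ribosome makes the hydrophobic core subunits of the respiratory chain from mRNAs of the mitochondrial genome, and the heart depends heavily on it. Its RNA comes from mtDNA, where 12S rRNA (mt-Rnr1) forms the core of the small subunit and 16S rRNA (mt-Rnr2) the core of the large subunit. All its proteins are encoded in the nucleus, made in the cytosol and imported, so that the assembly of a mitoribosome needs the output of both genomes. Part of the proteins have homologs in bacterial ribosomes, and the others are specific to mitochondria.

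Total RNA of whole hearts from mice of about 5 weeks of age was sequenced in strand-specific TruSeq libraries. The knockout hearts (Ssbp1-/- in the sample labels, L/L, cre in the study's own naming) came from mice with a loxP-flanked Ssbp1 exon and Cre recombinase under the Ckmm (muscle creatine kinase) promoter, active in cardiomyocytes and skeletal muscle, so that the other cells of the heart kept the gene. The controls (Ssbp1+/+ in the sample labels, L/L in the study's own naming) carried the floxed gene and no Cre. Since the sample labels state the genotype alone, its match to these names was read from both sources. All mice had a C57BL/6N nuclear background, and 2 knockout and 2 control hearts, each from a different mouse, were compared. The libraries of 2 further mice carried contradictory genotype labels and entered no comparison.

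Depth, in reads assigned to genes, was 25558246 and 25682093 in the knockout libraries and 24067849 and 19716305 in the control libraries. The 2 rRNAs took 50.1% to 54.5% of these reads. Nuclear genes had 10734547 and 11259234 reads in the knockout libraries, against 8981637 and 6568812 in the control libraries. Both controls were thus shallower there, with control replicate 2 the shallowest. The deposited Ssbp1 value covers the whole gene rather than the flanked exon. It was 170 and 163 normalized counts in knockout hearts and 177 and 216 in control hearts. The 2 groups did not overlap, but the log2 fold change of -0.23 ± 0.16 (SE) did not pass the test (limma, adjusted p = 0.890), and it was -0.089 without control replicate 2, so Ssbp1 by itself does not separate the labels. The 7 cardiomyocyte markers summed to 602506 and 580077 normalized counts in knockout hearts and to 606257 and 572641 in control hearts. 0 of the 7 passed the test, beside 0.117% of all genes tested. The 5 fibroblast markers summed to 9462 and 11842 in knockout hearts, against 13052 and 12277 in control hearts, lower without overlap. Their log2 fold changes were -0.29 to -0.15, and 0 of the 5 passed the test. Taken singly, 2 of the 5 were lower without overlap, beside 17.5% of all genes tested. The sums of endothelial, macrophage, lymphocyte, smooth muscle, skeletal muscle and adipocyte markers overlapped between the groups. The 5 erythroid markers summed to 14926 and 41866 in knockout hearts, against 18944 and 14398 in control hearts, high in knockout replicate 2 alone. In whole tissue, a smaller number of cells of one type and less RNA per cell cannot be told apart.

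Both rRNA genes lie on the + strand of the mouse mitochondrial genome (GRCm38), within a unit read from the heavy-strand promoter. mt-Rnr1 occupies chrM:70-1024 and has 955 bases, and mt-Rnr2 occupies chrM:1094-2675 and has 1582 bases. The only sequence between them is the tRNA-Val gene (mt-Tv, chrM:1025-1093), and tRNA-Leu (mt-Tl1, chrM:2676-2750) separates mt-Rnr2 from mt-Nd1, the first mRNA gene of the unit. These tRNA genes are where the precursor is cut to release the rRNAs, so both junctions are shown, chrM:985-1133 and chrM:2636-2790, 5′ to 3′, with 40 bases on either side. Capitals mark the tRNA, and the lower-case letters before and after it belong to the neighboring rRNA or mRNA.
mt-Rnr1 to mt-Rnr2 junction: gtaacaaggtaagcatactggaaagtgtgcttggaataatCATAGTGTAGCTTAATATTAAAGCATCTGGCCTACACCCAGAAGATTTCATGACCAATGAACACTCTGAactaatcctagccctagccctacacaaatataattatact
mt-Rnr2 to mt-Nd1 junction: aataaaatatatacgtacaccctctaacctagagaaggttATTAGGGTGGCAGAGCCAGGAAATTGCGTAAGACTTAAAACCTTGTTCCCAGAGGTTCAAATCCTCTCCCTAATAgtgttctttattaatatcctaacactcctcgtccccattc
No base separates the genes at either junction in the annotation. All 22 mitochondrial tRNA rows of the deposited table were listed at 0 in every library, and the tRNAs themselves were not analysed here.

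Both rRNAs were lower in the knockout hearts, by less than the test could separate from the replicate error. mt-Rnr1 had 821677 and 854524 normalized counts in knockout hearts, against 987936 and 1383807 in control hearts. Both knockout hearts were below both control hearts, and the controls differed from each other by more than the knockouts did. The log2 fold change of mt-Rnr1 was -0.48 ± 0.18 (SE, n = 2 hearts per group; 95% interval -0.92 to -0.04), with an unadjusted p of 0.036 and an adjusted p of 0.798 (limma). With each heart left out in turn it ranged from -0.72 to -0.24, the value nearest to 0 being that without control replicate 2.

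mt-Rnr2 had 10072267 and 8995845 normalized counts in knockout hearts, against 11085631 and 13101474 in control hearts. Again the groups did not overlap, and knockout replicate 1 was close to control replicate 1. The log2 fold change was -0.34 ± 0.20 (SE, n = 2 per group; 95% interval -0.83 to 0.15; limma adjusted p = 0.858). It ranged from -0.46 without control replicate 1 to -0.22 without control replicate 2. Of all 14522 genes tested, 17.5% were lower without overlap, so the position of the hearts is by itself a common pattern. DESeq2 on the recovered reads gave an adjusted p of 0.055 for mt-Rnr1 and 0.216 for mt-Rnr2. Scaling to equal totals of mitochondrial features brought the log2 fold change of mt-Rnr1 to -0.0033 and turned that of mt-Rnr2 to 0.14. The rRNAs together are 81.8% to 89.3% of those totals, mostly through mt-Rnr2, so this scaling largely fixes their sum by construction. The values give each rRNA relative to the mitochondrial total, beside which mt-Rnr1 changed little. They say nothing of the level of either rRNA.

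Ratios within a library do not depend on the scaling between libraries. The ratio of mt-Rnr1 to mt-Rnr2 was 0.0816 and 0.0950 in knockout hearts, against 0.0891 and 0.106 in control hearts. The groups overlapped, and the hearts of each group were further apart than the group means (log2 difference -0.14, exact permutation test, two-sided, p = 0.667). Per kilobase of gene the ratio was 0.135 and 0.157 in knockout hearts and 0.148 and 0.175 in control hearts. Thus in every heart the deposited counts gave several times as much mt-Rnr2 as mt-Rnr1, although each ribosome holds the same number of both. Whether rRNA was depleted, and how evenly between the libraries, is not given in the sources used here. A ratio within a library does not remove that limit, for this ratio or for those of rRNA to mRNA below.

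The rRNAs kept closer to the control level than the sum of the mitochondrial mRNAs did, though not closer than mt-Nd1, given below. All mitochondrial mRNAs summed to 1317441 and 1183447 normalized counts in knockout hearts, against 2670787 and 3227115 in control hearts. The ratio of both rRNAs to these mRNAs was 8.27 and 8.32 in knockout hearts, against 4.52 and 4.49 in control hearts. This ratio was 1.84-fold higher in the knockouts, and the SD between replicates was 0.038 in knockout hearts and 0.023 in control hearts. The rRNAs made up 89.2% and 89.3% of the mitochondrial normalized counts in knockout hearts and 81.9% and 81.8% in control hearts. With 2 hearts against 2, the exact permutation test (two-sided) cannot give a p below 0.33, which is what it gave here, and 0.429 after adjustment over the 9 ratios and shares compared.

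mt-Nd1, the complex I subunit gene directly after the rRNAs, followed mt-Rnr2 more closely than the sum of the mRNAs did. The ratio of mt-Rnr2 to mt-Nd1 was 59.0 and 58.1 in knockout hearts, against 62.0 and 65.6 in control hearts. The knockouts were lower by 0.12 on the log2 scale, without overlap (exact permutation p = 0.33, two-sided, adjusted 0.429), and the difference was -0.082 without control replicate 2. mt-Nd1 alone had a log2 fold change of -0.22 ± 0.11 (SE; limma adjusted p = 0.815).

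No mRNA of a nuclear-encoded mitoribosomal protein passed the test in either direction. All 78 Mrpl and Mrps genes passed the filter on low values, with 72 to 2033 reads per gene and library. 0 of the 78 passed the adjusted threshold with limma, where 0.117% of all genes tested did. edgeR and DESeq2 on the recovered reads likewise called 0 (background 0.131% and 0.434%). At an unadjusted p under 0.05, limma named 2 of the 78 (background 6.11%), 1 higher (background 3.08%) and 1 lower (background 3.02%), edgeR 4 (background 6.11%) and DESeq2 0 (background 3.62%). The smallest adjusted p of a member was 0.798 with limma.

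The precision at these genes was good enough to bound most changes. The median SE of the log2 fold change was 0.14, and the 95% interval lay within 1.5-fold in either direction for 63 of the 78. The share over all genes tested was 40.8%, but these include genes at lower levels than any member, and no share at like levels was taken. The interval of the members lay within 2-fold for 77, the exception being Mrpl47. The log2 fold changes ranged from -0.35 to 0.45, with 63 genes within 0.2 of 0.

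Small shifts leaned toward higher values in the knockouts. The log2 fold change was positive in 56 members and negative in 22, where 50.5% of all genes tested were positive. The median was 0.073 (1.05-fold), beside 0.0024 for all genes tested, and 0.045 without control replicate 2. Knockout and control hearts stood apart in 30 members (background 35.6%). The knockout hearts were higher without overlap in 25 members (background 18.1%) and lower without overlap in 5 (background 17.5%). With nuclear totals set equal these counts were 28 (background 19.6%) and 4 (background 15.9%). Since the genes share the same 4 hearts and were taken as a list, these counts carry no test. The share of nuclear reads falling on the 78 genes was 0.321% in both knockout hearts, against 0.310% and 0.303% in control hearts (1.05-fold, exact permutation p = 0.33, two-sided, adjusted 0.429).

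**Figure D1:**
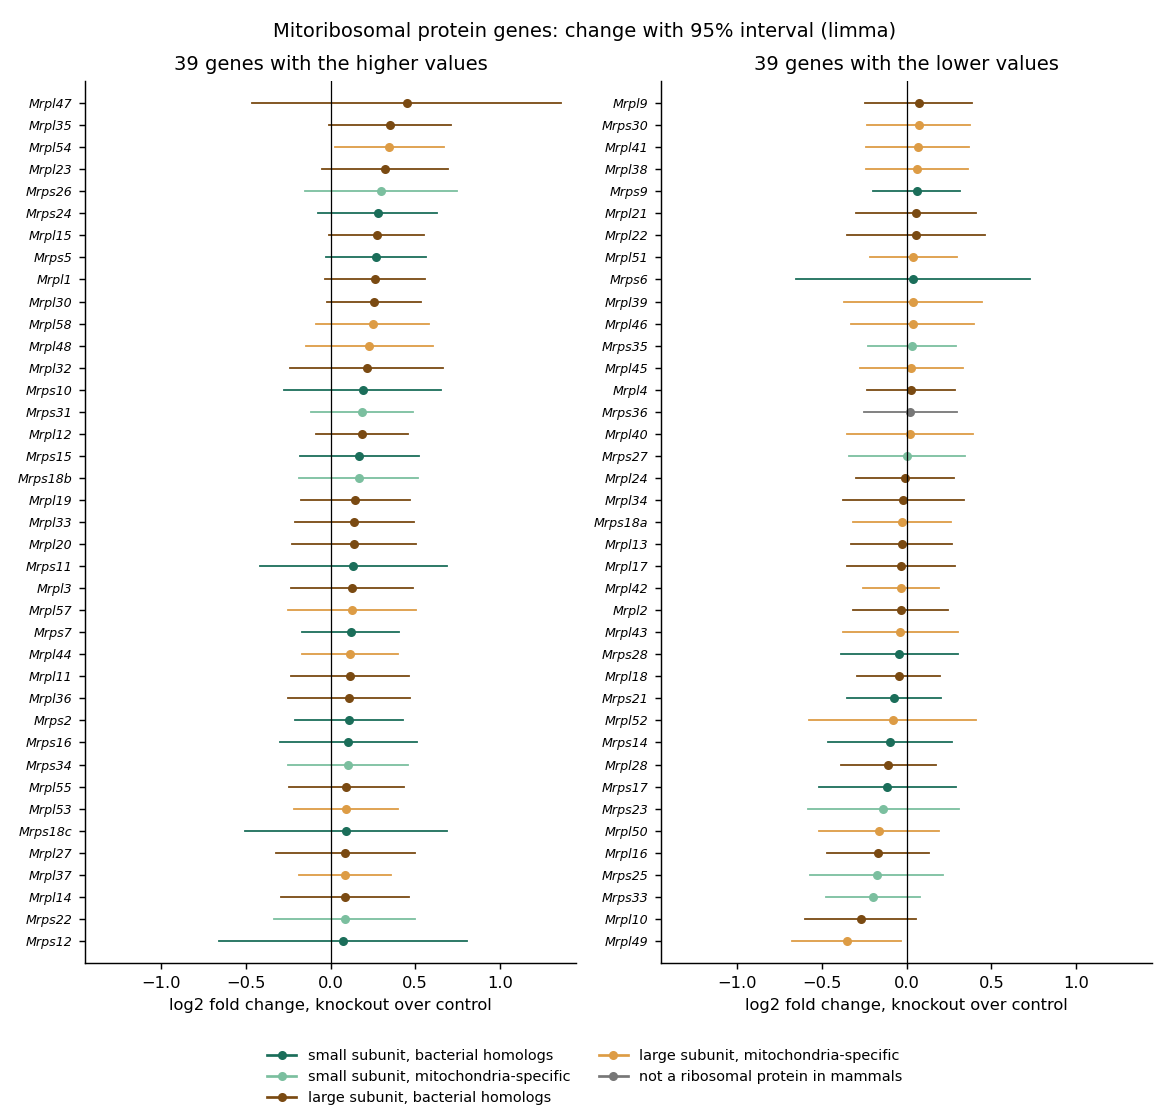
Each row is one Mrpl or Mrps gene, with its log2 fold change (dot) and 95% interval (line) in knockout over control hearts from limma (n = 2 hearts per group), colored by its place and origin. The 78 dots lie between -0.35 and 0.45, and 2 intervals leave out 0, those of Mrpl54 above it and Mrpl49 below it.

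The differences between the groups were no larger than those between hearts of one group. Over the 78 genes, the SD of the log2 ratio was 0.17 between the 2 knockout hearts and 0.27 between the 2 control hearts. The SD of the log2 fold changes was 0.15, though a fold change of means over 2 hearts varies less by construction than a ratio of single hearts. Over the 7771 genes in the same range of levels the SD was 0.32 between the knockout hearts, 0.53 between the control hearts and 0.27 for the fold changes. By SD, the mitoribosomal protein mRNAs thus varied less between hearts than the genes in that range, within which levels were not matched. The median absolute log2 fold change was closer, at 0.10 for the 78 genes and 0.12 for the 7771.

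**Figure D2:**
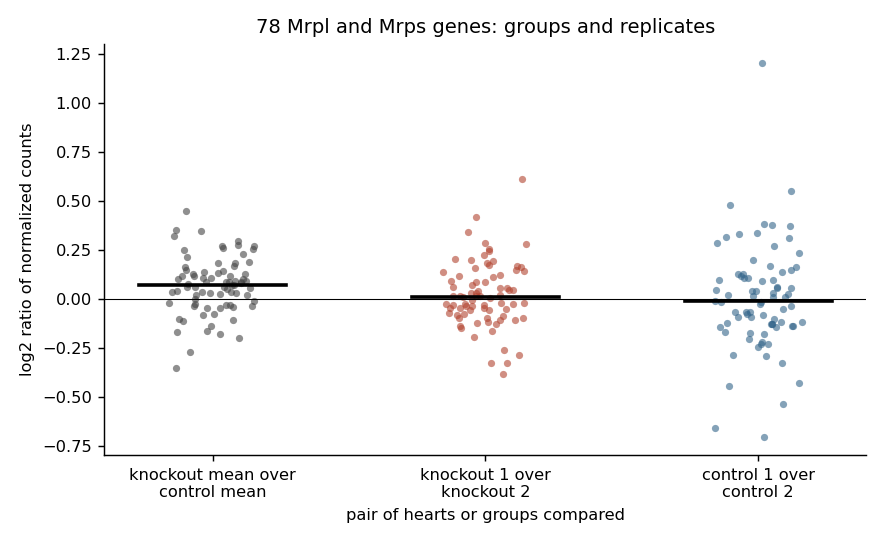
Each point is one of the 78 Mrpl and Mrps genes. The columns give the log2 ratio of knockout to control means, of knockout 1 to knockout 2, and of control 1 to control 2, and black lines are medians. The spread is widest between the controls (SD 0.27), and the point above 1 in that column is Mrpl47.

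The large subunit had 51 members by place in the ribosome, with a median log2 fold change of 0.070. Among them, the 30 proteins with bacterial homologs had a median of 0.090 (21 positive), and the 21 mitochondria-specific ones 0.039 (15 positive). The background of positive values was 50.5%. The highest and the lowest values of all members were in the large subunit. Mrpl49, a mitochondria-specific protein, had 219 and 226 normalized counts in knockout hearts, against 274 and 296 in control hearts. Both knockout hearts were lower, by 0.35 ± 0.13 on the log2 scale (SE; limma unadjusted p = 0.036, adjusted 0.798).

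Mrpl54, also specific to mitochondria, had 294 and 285 normalized counts in knockout hearts, against 217 and 238 in control hearts. The knockouts were higher without overlap (log2 fold change 0.35 ± 0.13 SE, limma unadjusted p = 0.039, adjusted 0.798). Mrpl35, the homolog of bacterial L35, had 332 and 357 in knockout hearts and 244 and 298 in control hearts (log2 fold change 0.35 ± 0.15 SE, limma adjusted p = 0.806), and its value was 0.21 without control replicate 1. Neither gene passed the adjusted test.

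Mrpl47, the homolog of L29 beside the exit of the tunnel, had the largest fitted value and the least reliable one. It had 246 and 301 normalized counts in knockout hearts, against 303 and 131 in control hearts. Both knockout hearts lay between the controls, and the log2 fold change of 0.45 ± 0.38 (SE, limma adjusted p = 0.903) turned to -0.15 without control replicate 2.

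The polypeptide exit tunnel, where the new protein leaves the large subunit and meets the inner membrane, had 8 listed genes. Of these, 6 were positive (background 50.5%) and 0 were called (background 0.117%). At that background, 0 calls in so short a list says little. Mrpl23 (L23), a docking site at the exit, had 344 and 352 normalized counts in knockout hearts, against 313 and 248 in control hearts (log2 fold change 0.32 ± 0.15 SE, limma adjusted p = 0.815). Without control replicate 2 it was 0.15, and without control replicate 1 it was 0.49. Mrpl45, which anchors the ribosome at the inner membrane, had 574 and 522 in knockout hearts and 575 and 501 in control hearts. Its values in the 2 groups overlapped, with a log2 fold change of 0.028. The other 5, Mrpl17, Mrpl22, Mrpl24, Mrpl39 and Mrpl44, had log2 fold changes of -0.032 to 0.12.

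The L7/L12 stalk recruits translation factors to the large subunit, and its 3 genes did not move together. Mrpl10, its base, had 292 and 260 normalized counts in knockout hearts, against 320 and 348 in control hearts, lower without overlap (log2 fold change -0.27 ± 0.13 SE). Mrpl12, the factor-binding protein itself, had 564 and 615 in knockout hearts, against 502 and 535 in control hearts, higher without overlap (0.18 ± 0.11 SE, and 0.12 without knockout replicate 2). Mrpl11 overlapped between the groups (0.12 ± 0.14 SE). None of the 3 passed the adjusted test (limma adjusted p = 0.815, 0.861 and 0.936).

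The central protuberance, which in mammals is built around a tRNA in place of 5S rRNA, had 8 listed genes, and 0 were called (background 0.117%). Mrpl58 (ICT1), which also releases stalled ribosomes, had 249 and 247 normalized counts in knockout hearts, against 199 and 218 in control hearts, higher without overlap (log2 fold change 0.25 ± 0.14 SE, limma adjusted p = 0.837). Mrpl48 was also higher without overlap (0.23 ± 0.15 SE), but 0.060 without control replicate 2. Mrpl18, Mrpl38, Mrpl40, Mrpl46, Mrpl52 and Mrpl55 overlapped, with log2 fold changes of -0.083 to 0.094.

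Mrpl16 and Mrpl50 were the remaining large subunit genes among the lowest values. Mrpl16, the L16 homolog, had 320 and 301 normalized counts in knockout hearts, against 362 and 338 in control hearts, lower without overlap (log2 fold change -0.17 ± 0.12 SE). Mrpl50, specific to mitochondria, had 381 and 343 in knockout hearts and 366 and 447 in control hearts, which overlapped (-0.16 ± 0.15 SE). The value of Mrpl50 was -0.31 without control replicate 1, but only -0.017 when control replicate 2 was left out.

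The small subunit had 26 members by place in the ribosome, with a median log2 fold change of 0.086. Of these, 19 were positive (background 50.5%) and 0 were called (background 0.117%). The 16 proteins with bacterial homologs had a median of 0.097 and the 10 mitochondria-specific ones 0.057. Its 3 listed genes at the mRNA entry and the decoding center were all positive (background 50.5%). Mrps24 (S3), at the mRNA entry, had 330 and 276 normalized counts in knockout hearts, against 250 and 248 in control hearts. Mrps5 (S5) had 331 and 324 in knockout hearts, against 273 and 271 in control hearts. Both were higher without overlap, with log2 fold changes of 0.28 ± 0.14 and 0.27 ± 0.12 (SE, limma adjusted p = 0.831 and 0.809). Mrps24 was at 0.15 without knockout replicate 1 and at 0.41 without knockout replicate 2, while Mrps5 stayed between 0.25 and 0.28 with any heart left out. Mrps12 (S12), the decoding protein, overlapped widely between 222 and 145 in knockout hearts and 133 and 217 in control hearts.

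Mrps26, a mitochondria-specific protein, had the highest fitted value of its subunit, with 201 and 182 normalized counts in knockout hearts, against 178 and 136 in control hearts (log2 fold change 0.30 ± 0.19 SE). Its value was 0.10 without control replicate 2, below Mrps24 at 0.27, and 0.49 without control replicate 1. Mrps33 was the lowest, with 370 and 354 in knockout hearts, against 413 and 418 in control hearts (-0.20 ± 0.11 SE). Mrps25 followed with 322 and 254 in knockout hearts and 341 and 307 in control hearts (-0.18 ± 0.16 SE), but its value was -0.0071 without knockout replicate 2 and -0.35 without knockout replicate 1. The groups did not overlap for Mrps26 and Mrps33 and overlapped for Mrps25, and none of these passed the adjusted test (limma adjusted p = 0.867, 0.845 and 0.909).

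Mammals have 3 paralogs of bacterial S18, of which Mrps18b and Mrps18c sit in the small subunit and Mrps18a in the large one. Mrps18b had 210 and 223 normalized counts in knockout hearts, against 184 and 202 in control hearts. Mrps18a had 448 and 412 in knockout hearts, against 455 and 420 in control hearts, and Mrps18c 103 and 129 against 89.9 and 131. Only Mrps18b was higher without overlap, and the log2 fold changes were 0.17 for Mrps18b (0.097 without control replicate 1), -0.025 for Mrps18a and 0.089 for Mrps18c. Mrps36, which carries the name of a ribosomal protein but belongs to the 2-oxoglutarate dehydrogenase complex, had 412 and 399 in knockout hearts and 396 and 403 in control hearts (0.022 ± 0.11 SE).

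The balance between Mrps and Mrpl mRNAs, grouped by name, stayed close to constant. The Mrps names include Mrps18a and Mrps30, which sit in the large subunit, and Mrps36. The summed Mrps counts were 0.483 and 0.479 of the summed Mrpl counts in knockout hearts, against 0.492 and 0.493 in control hearts. The knockouts were lower by 0.034 on the log2 scale without overlap (exact permutation p = 0.33, two-sided, adjusted 0.429). Taking the mean over genes on the log2 scale instead, which gives each gene the same weight, the groups overlapped (-0.016, exact permutation p = 0.667). By place in the ribosome, small subunit genes summed to 8086 and 7848 in knockout hearts, against 7851 and 7736 in control hearts. Large subunit genes summed to 19907 and 19443 in knockout hearts, against 19006 and 18702 in control hearts.

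The levels of the mRNAs differed far more between genes than between groups. Per kilobase of transcript, members spanned 38.9 to 2410 normalized counts in knockout hearts and 36.7 to 2466 in control hearts, with medians of 214 and 197. Mrpl42 led with 2410 per kilobase in knockout hearts and 2466 in control hearts, followed by Mrps21 with 982 and 1036. Mrpl33 and Mrpl30 came next, and these leading genes had transcripts of 478 to 969 bases. Mrps26, Mrpl17, Mrpl57 and Mrps25 were at the low end, all with transcripts of 2877 to 7300 bases. The order per kilobase thus depends on the transcript chosen for each gene. By mean normalized count over the hearts compared, Mrps25 (306) and Mrpl17 (287) were near the median of the members (300). The order by normalized count per gene was nearly the same in both groups (Spearman's rho 0.96 over the 78 genes, a description, since both share gene length and mapping). By normalized count per gene, Mrpl42, Mrpl51, Mrps23 and Mrpl30 were the highest, with log2 fold changes of -0.034, 0.039, -0.14 and 0.26. Mrps6, Mrps18c, Mrpl52 and Mrps11 were the lowest, and their groups overlapped.

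**Figure D3:**
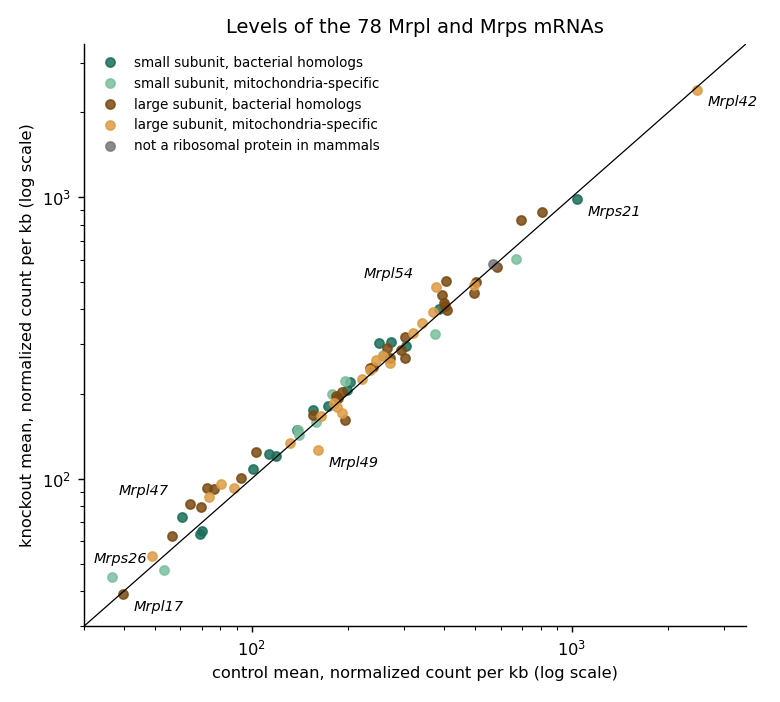
Each point is one Mrpl or Mrps gene, with its mean normalized count per kilobase of transcript in knockout hearts on the vertical axis and in control hearts on the horizontal axis, both on log scales. The line marks equal levels, and the points run along it from Mrpl17 and Mrps26 at the low end to Mrpl42, at 2410 in knockout hearts and 2466 in control hearts.

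Set against the rRNAs, the protein mRNAs gave another picture than set against all genes. The 2 rRNAs together had 384 and 356 normalized counts per count of Mrpl and Mrps mRNA in knockout hearts, against 443 and 540 in control hearts. The knockouts were lower by 0.40 on the log2 scale, without overlap (exact permutation p = 0.33, two-sided, adjusted 0.429). The value ranged from -0.55 without control replicate 1 to -0.26 without control replicate 2, and was -0.53 with mt-Rnr1 alone and -0.39 with mt-Rnr2 alone. The mtDNA-encoded RNAs of the ribosome were thus lower relative to its nuclear-encoded mRNAs in both knockout hearts.

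Cytosolic ribosomal proteins served as the like machine outside mitochondria. Of their 81 genes, 79 had a positive log2 fold change (background 50.5%) and 68 were higher without overlap (background 18.1%), with a median of 0.22. 0 of these genes passed the adjusted threshold of limma (background 0.117%), and 34 had an unadjusted p under 0.05, all of them higher (background 3.08%). The mean log2 level of the mitoribosomal genes minus that of the cytosolic ones was -1.85 and -1.92 in knockout hearts and -1.73 and -1.72 in control hearts. The difference was lower in both knockouts, by 0.16 on the log2 scale (exact permutation p = 0.33, two-sided, adjusted 0.429). The fibroblast sum given above was lower in the same hearts, and its part in these differences was not tested.

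The remaining genes of the pathway, taken as lists, also had 0 calls with limma (background 0.117%). Of the 5 mitoribosomal proteins under other names, Aurkaip1 and Chchd1 were higher without overlap (log2 fold change 0.30 ± 0.12 and 0.18 ± 0.13 SE, background 18.1%). Dap3 was lower without overlap (-0.053, background 17.5%), and Gadd45gip1 and Ptcd3 overlapped. The 30 assembly and rRNA modification genes tested had a median of 0.046, with 17 positive (background 50.5%). Of the 30, 7 were higher without overlap (background 18.1%) and 2 were lower without overlap (background 17.5%). The smallest p belonged to Malsu1, which keeps immature large subunits from joining, with 152 and 146 normalized counts in knockout hearts, against 115 and 115 in control hearts (0.37 ± 0.16 SE, limma adjusted p = 0.806). Mrm3, a 16S rRNA methyltransferase (0.34 ± 0.15 SE), and Dhx30, an RNA helicase of the large subunit's assembly (0.30 ± 0.15 SE), came next, both higher without overlap. Malsu1, Mrm3 and Dhx30 were named for the smallest p of their list, which favors groups that stand apart.

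The 13 translation factors tested had a median log2 fold change of 0.025, and Lrpprc, which stabilizes mitochondrial mRNAs, had 2492 and 2540 normalized counts in knockout hearts, against 2194 and 2271 in control hearts (0.17 ± 0.08 SE, limma adjusted p = 0.815). Guf1 (0.21) and Mrrf (0.19) were next in p. The 10 genes of rRNA transcription and processing tested had a median of -0.048 and the widest spread.

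In that last list 2 genes had an unadjusted p under 0.05, both higher in the knockouts (background 3.08%). Tfam, which packages mtDNA and starts its transcription, had 394 and 353 normalized counts in knockout hearts, against 237 and 303 in control hearts (log2 fold change 0.47 ± 0.16 SE, limma unadjusted p = 0.026, adjusted 0.773). Elac2, which cuts the 3′ ends of mitochondrial tRNAs such as those in the junctions shown, had 245 and 212 in knockout hearts, against 163 and 175 in control hearts (0.43 ± 0.15 SE, unadjusted p = 0.030, adjusted 0.792). Prorp, the nuclease that cuts the 5′ ends, had 67.5 and 62.7 in knockout hearts, against 71.3 and 109 in control hearts (-0.43 ± 0.26 SE, adjusted p = 0.862). The knockout hearts were separated from the controls for all 3 genes (background 35.6%). These genes were named for the smallest p of their list, a choice that favors such separation, and none passed the adjusted test.

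**Figure D4:**
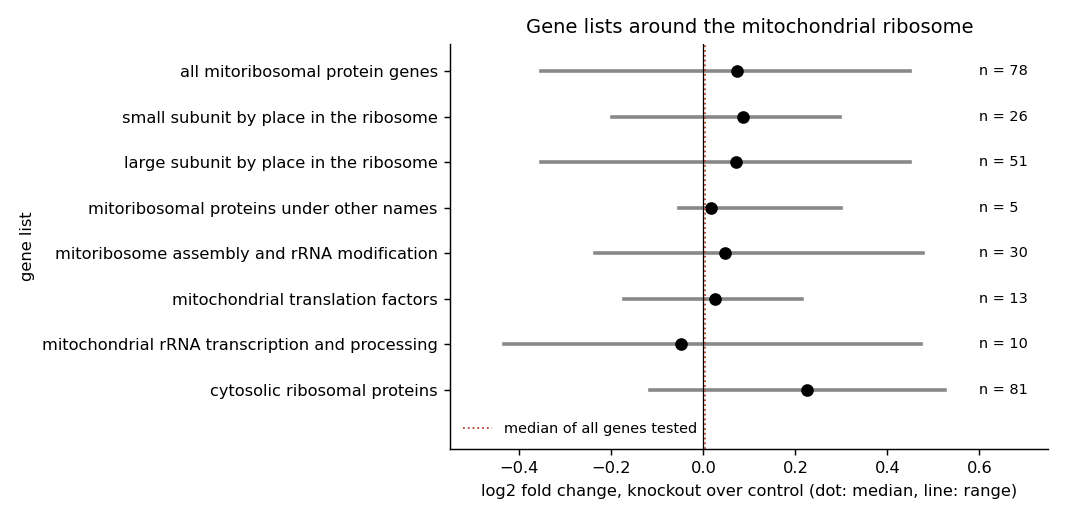
For each gene list the dot is the median log2 fold change in knockout over control hearts and the line its range, with the number of genes tested at the right. The dotted line is the median of all genes tested. The medians are 0.073 for all mitoribosomal protein genes, 0.086 for the small and 0.070 for the large subunit, 0.015 for the proteins under other names and 0.22 for the cytosolic ribosomal proteins.

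The protein genes are scattered over the genome but share features of their starts. They lie on 17 chromosomes, with 11 members on chromosome 11. In the annotation, 33 of the 78 (42.3%) have another protein-coding gene starting within 1000 bases on the opposite strand, against 15.6% of the other protein-coding genes tested. Mrps11 and Mrpl46 share such a start with each other. Mrpl49 starts 59 bases from Fau, which encodes a cytosolic ribosomal protein and had 732 and 794 normalized counts in knockout hearts, against 718 and 710 in control hearts (log2 fold change 0.094), while Mrpl49 was at -0.35. Of the 33 neighbors, 28 were tested, with a median of 0.013 and 14 positive (background 50.5%), and 0 were called by limma (background 0.117%).

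Promoter sequences from RefSeq (GRCm38.p6, 250 bases before to 50 after the start) matched 69 of the 78 genes, in 75 windows. The ETS motif CCGGAAG, the YY1 motif AAGATGGC and the core NRF1 motif GCATGCGC were searched on both strands, the factors of that name being known regulators of nuclear genes for mitochondrial proteins. The ETS letters were in 34.7% of the members' windows, against 16.4% of the windows of the other genes tested and 8.86% of all windows. The YY1 letters were in 16% of the members' windows, against 4.11% and 2.75%, and they include ATG, so that they can overlap a start codon. The NRF1 core was in 10.7% of the members' windows, against 4.82% and 2.71%. At least one of these motifs was in 50.7% of the members' windows, against 23.2% for the other genes tested. The windows are shown for the lowest member (Mrpl49, chr19:6057706-6058005, - strand), for one with 2 of the motifs (Mrps18b, chr17:35916391-35916690, - strand) and for a member from the high end (Mrpl35, chr6:71823735-71824034, - strand). They are written 5′ to 3′ along the gene, with motif letters in capitals.
Mrpl49: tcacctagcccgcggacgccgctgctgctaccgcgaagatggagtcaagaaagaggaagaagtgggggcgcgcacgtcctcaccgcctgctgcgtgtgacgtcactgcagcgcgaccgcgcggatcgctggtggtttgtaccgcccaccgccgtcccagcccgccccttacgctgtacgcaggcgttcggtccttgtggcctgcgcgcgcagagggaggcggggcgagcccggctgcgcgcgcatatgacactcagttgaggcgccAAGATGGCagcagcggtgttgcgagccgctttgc
Mrps18b: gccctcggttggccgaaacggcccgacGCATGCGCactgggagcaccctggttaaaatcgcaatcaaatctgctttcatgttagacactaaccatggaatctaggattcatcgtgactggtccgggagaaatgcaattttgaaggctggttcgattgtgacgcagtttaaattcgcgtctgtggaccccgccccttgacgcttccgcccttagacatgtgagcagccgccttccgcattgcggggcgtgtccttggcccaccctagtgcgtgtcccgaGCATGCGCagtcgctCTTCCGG
Mrpl35: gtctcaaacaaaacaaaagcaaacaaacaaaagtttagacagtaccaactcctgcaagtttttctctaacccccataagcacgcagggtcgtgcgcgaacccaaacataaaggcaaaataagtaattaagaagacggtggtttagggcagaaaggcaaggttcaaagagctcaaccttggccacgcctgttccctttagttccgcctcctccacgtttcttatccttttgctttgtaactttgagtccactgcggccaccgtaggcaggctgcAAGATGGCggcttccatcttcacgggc
Mrpl49 and Mrpl35, which had the opposite signs of change, both carry the YY1 letters close to the start, and Mrps18b carries the NRF1 core and ETS letters. A match of letters is a description and was not tested for binding.

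The annotation also limits some values. Exons of 8 members overlap those of another gene on the same strand, among them Mrps6, Mrps18c, Mrpl33, Mrps24 and Mrpl51, and reads there could be assigned to either gene. Exons of 28 members overlap an exon on the opposite strand, which the strand-specific counting separates.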

How the data were processed

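RNA was extracted from whole hearts and sequenced in strand-specific TruSeq libraries. Whether rRNA was depleted is not given in the sources used here. The authors used STAR 2.7.3a for alignment to GRCm38.p6 after masking nuclear copies of mtDNA, counted them by strand with Salmon 1.1.0 on GENCODE vM24 with a customized mitochondrial annotation, and deposited counts divided by DESeq2 1.26.0 size factors, a signal per gene. All values (100%, tolerance 0.001) were whole multiples of 1 read's worth, so reads were recovered. A second deposited table holds the authors' own fold changes and p-values and was not used.

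Knockout and control libraries (2 each, as all labels agree) were compared in R 4.3.3 by fitting log2(normalized count + 1) with limma 3.58.1 (mean-variance trend, two-sided) for 14522 genes with at least 10 in at least 2 libraries, adjusted by Benjamini-Hochberg over all of them at 0.05. edgeR 4.0.16 and DESeq2 1.42.0 on recovered reads were alternatives. Fits were tested on simulated data. Ratios per library were compared by exact permutation tests. All 80 members were positioned with GENCODE vM21; kilobases are of the longest transcript with the best APPRIS rank. The members, lists and motifs were chosen with earlier results of these data known. Genes were named if they had the 6 highest or lowest fold changes, the 4 highest or lowest levels, or lay in a small structural list, and in other lists for the 3 smallest p. Genes from outside this rule were named where a sequence or a neighbor is shown. A sign change counted as a reversal only where the value of the main fit exceeded its SE. The turned value itself could lie within its SE, as for Mrpl49 with mitochondrial totals set equal (0.12 ± 0.21 SE).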

Additional observations from a re-analysis of the deposited data

How the results depend on the processing

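Under the alternatives for the pseudocount, filter, scaling, trend, tool and each heart left out, 0 members were called, as with the replicate block. The block called 30 of all genes, against 17 without it, and same-numbered hearts share only a number (correlation of deviations 0.31 over 2 pairs). Genes called overall were 52 with mitochondrial totals set equal, 63 with DESeq2, 6 without the trend and 6 to 33 with a heart left out, 33 being without control replicate 1. The median log2 fold change of the Mrpl and Mrps genes was 0.088 with nuclear totals set equal, 0.087 with TMM factors, and 0.045 to 0.085 with a heart left out. With mitochondrial totals set equal it was 0.55 while the median of all genes moved to 0.48, mt-Rnr2 (with mt-Rnr1, most of those totals) turned to 0.14, and Ssbp1 to 0.24, Mrpl49 to 0.12, Mrpl10 to 0.20, Mrps33 to 0.28, Mrps25 to 0.30, Mrpl16 to 0.31 and Mrpl50 to 0.31, as the scaling itself raises nuclear genes. Mrpl47 ranged from -0.15 (without control replicate 2) to 1.05 (without control replicate 1). Ratios within libraries kept their direction under all alternatives run. With 2 hearts a group, exact tests cannot pass 0.05, and the 95% interval of 15 members reached past 1.5-fold.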

Other observations

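The titles of 2 further mice contradict their genotype labels, and their values are given here without a group. The heart of the mouse numbered 585H had a ratio of both rRNAs to mitochondrial mRNA of 8.11, a ratio of mt-Rnr1 to mt-Rnr2 of 0.0935, and 383 rRNA counts per count of Mrpl and Mrps mRNA. The heart of the mouse numbered 586H had 3.82, 0.108 and 469 for the same measures. The Mrpl and Mrps genes took 0.298% of the nuclear reads in the heart of 585H and 0.296% in that of 586H, and both values are below those of the 4 hearts compared. The ratio of mt-Rnr2 to mt-Nd1 was 53.7 in 585H and 48.1 in 586H, both below the 4 hearts compared. The ratio of summed Mrps to Mrpl counts was 0.492 in 585H and 0.501 in 586H. Which genotype either heart had cannot be settled from the labels.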
